A study of Mus musculus with 2 samples.

Results

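Ccl3, Ccl4, Ccl5, Ccl6, Ccl9 and Cxcl10 encode 6 chemokines, and they were taken by symbol from the 31053 genes counted in bone marrow progenitors. All 6 had UMIs in both libraries, where a UMI (unique molecular identifier) counts 1 RNA molecule. The cells came from the bone marrow of GATA-1 mutation knock-in mice (KI, 1 library, called a 2RA mutation in the title of the series) and of wild-type mice (WT, 1 library), and were sorted as Lin- Kit+. GATA-1 is the zinc finger factor that drives the making of red cells and megakaryocytes, and the question put was which populations and which genes set the genotypes apart. The labels give no age, sex or strain, and do not say how many mice went into a library. With 1 library per genotype no difference has a replicate check and none was tested, so every value below compares these 2 libraries. Intervals are at 95% and cover counting error only.

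Chemokines are small secreted proteins that draw leukocytes along a gradient through receptors coupled to G proteins. Ccl3 (MIP-1 alpha) and Ccl4 (MIP-1 beta) are close relatives made by activated leukocytes, and Ccl3, which binds Ccr1, is known to restrain the proliferation of haematopoietic stem cells. Ccl5 (RANTES) is a product of T cells, NK cells and platelets. Ccl6 and Ccl9 are rodent chemokines of myeloid cells that act through Ccr1. Cxcl10 (IP-10) binds Cxcr3 and is a textbook target of interferon and of the transcription factor NF-kB.

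Of the 6 genes, 5 lie together on chromosome 11 (mm10), over 138.9 kb. In order along the chromosome they are Ccl5 (chr11:83525778-83530518, minus strand), Ccl9 (chr11:83572919-83578636, minus strand), Ccl6 (chr11:83587882-83593087, minus strand), Ccl3 (chr11:83647844-83649355, minus strand) and Ccl4 (chr11:83662584-83664683, plus strand). The start sites of Ccl3 and Ccl4 are 13.2 kb apart and point away from each other, and those of Ccl6 and Ccl9 are 14.5 kb apart. Cxcl10 lies apart on chromosome 5 (chr5:92346638-92348889, minus strand). These positions are from GENCODE M21, whose gene IDs were the same as those in the files.

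The 250 bases before the start site are shown for the 4 members found in RefSeq's promoter table (GRCm38.p6, the assembly behind mm10), because the members differed in which cells held them and these letters let their starts be set side by side. Each reads 5′ to 3′ along the gene's own minus strand, and capitals mark the motif matches named after the sequences. RefSeq's start of Ccl3 lies a little upstream of the GENCODE start given above, so that window does not adjoin the GENCODE gene. Ccl4 and Ccl5 were not matched in that table.
Cxcl10, chr5:92348890-92349139: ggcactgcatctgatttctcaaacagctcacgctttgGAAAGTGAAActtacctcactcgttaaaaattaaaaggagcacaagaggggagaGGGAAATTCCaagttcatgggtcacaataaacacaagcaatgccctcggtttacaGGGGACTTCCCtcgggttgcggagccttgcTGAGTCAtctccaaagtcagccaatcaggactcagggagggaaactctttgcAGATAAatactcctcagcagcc
Ccl9, chr11:83578637-83578886: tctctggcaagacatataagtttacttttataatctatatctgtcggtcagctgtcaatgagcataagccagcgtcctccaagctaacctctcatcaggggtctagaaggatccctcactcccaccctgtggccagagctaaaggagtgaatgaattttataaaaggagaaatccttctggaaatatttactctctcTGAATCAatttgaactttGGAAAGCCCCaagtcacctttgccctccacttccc
Ccl6, chr11:83593088-83593337: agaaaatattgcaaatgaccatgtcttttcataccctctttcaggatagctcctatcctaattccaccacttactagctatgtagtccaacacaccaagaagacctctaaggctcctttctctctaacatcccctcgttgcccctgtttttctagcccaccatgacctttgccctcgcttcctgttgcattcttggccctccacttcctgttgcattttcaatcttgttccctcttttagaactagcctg
Ccl3, chr11:83649379-83649628: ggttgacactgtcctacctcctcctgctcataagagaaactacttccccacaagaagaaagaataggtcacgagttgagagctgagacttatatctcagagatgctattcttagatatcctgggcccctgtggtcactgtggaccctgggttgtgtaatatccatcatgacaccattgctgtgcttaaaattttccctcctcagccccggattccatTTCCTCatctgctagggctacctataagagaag

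In these windows the NF-kB motif was searched on both strands together with the interferon response element (GAAA, any 2 bases, and GAAA again), the GATA motif (AGATAA, where the first base may also be T and the last G), the C/EBP motif TTGCNNAA, the PU.1 motif GAGGAA and the AP-1 motif TGANTCA. The Cxcl10 window held the NF-kB motif in 2 places, 1 of them matched in overlapping frames and on both strands, and the interferon, GATA and AP-1 motifs in 1 place each. The Ccl9 window held the NF-kB motif on the opposite strand and the AP-1 motif, and the Ccl3 window held the PU.1 motif on the opposite strand. No match stood in the Ccl6 window. Of 32851 promoter windows of the same length in the table, 7.25% held the NF-kB motif, 2.98% the interferon element, 26.5% the GATA motif, 9.56% the C/EBP motif, 23.3% the PU.1 motif and 6.75% the AP-1 motif. A match is a description of the letters and shows no binding.

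After filtering, 5492 KI cells with 43597919 UMIs and 5490 WT cells with 64283716 UMIs remained, with medians of 5279 and 9623.5 UMIs per cell. Kit, the sorting marker, was detected in 56.2% of KI and 64.6% of WT cells, and 5 barcodes were shared between the libraries. Cells were clustered without any chemokine gene and named by marker genes, so a class name means resemblance. The classes compared were stem and multipotent (785 KI and 685 WT cells), lymphoid-primed (226 and 204), monocyte progenitor (340 and 962), neutrophil progenitor (181 and 553), basophil and mast (200 and 171), megakaryocyte (438 and 367) and erythroid cells (1811 and 1338). Cluster 13 (149 and 261 cells) was compared by number, because its leading genes Dntt, Flt3 and Cd34 belong to different classes. Clusters 1 (1295 and 36 cells) and 2 (18 and 907) were unnamed and each was nearly all of 1 library, so they entered no class comparison. T and NK cells (17 and 5) and B and plasma cells (32 and 1) were too few to compare. Most erythroid cells lay in clusters 4, 7 and 11 in KI and in clusters 5 and 6 in WT.

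Over all cells, 5 of the 6 chemokines were lower in KI, in UMIs per 1000000 UMIs of the library (CPM), and Ccl5 was higher. Ccl3 stood at 6.51 CPM in KI (284 UMIs) and 11.2 CPM in WT (722 UMIs), a log2 ratio of -0.79 (-0.99 to -0.59). Ccl4 stood at 12.6 CPM in KI (550 UMIs) and 16.8 CPM in WT (1082 UMIs), a log2 ratio of -0.42 (-0.57 to -0.27). Ccl9 was close to level, at 36.6 CPM in KI (1595 UMIs) and 40.2 CPM in WT (2587 UMIs). Ccl6 stood at 1.47 CPM in KI (64 UMIs) and 2.27 CPM in WT (146 UMIs). Ccl5 stood at 4.82 CPM in KI (210 UMIs) and 3.17 CPM in WT (204 UMIs). Cxcl10 stood at 1.79 CPM in KI (78 UMIs) and 6.25 CPM in WT (402 UMIs), a log2 ratio of -1.81 (-2.17 to -1.45).

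Cxcl10 was the 1 member of 6 at least 2-fold apart over all cells, where 5.23% of the 12017 genes with at least 50 UMIs were. A sum over all cells mixes the level per cell with how many cells of each class a library held. With KI class levels weighted by the WT class shares, which was added after the data were seen, the log2 ratio of Ccl9 was 0.42 and that of Ccl6 was 0.06, so both turned direction. The ratio of Ccl5 was -0.11 under a stricter cell filter, so it turned direction as well.

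**Figure D1:**
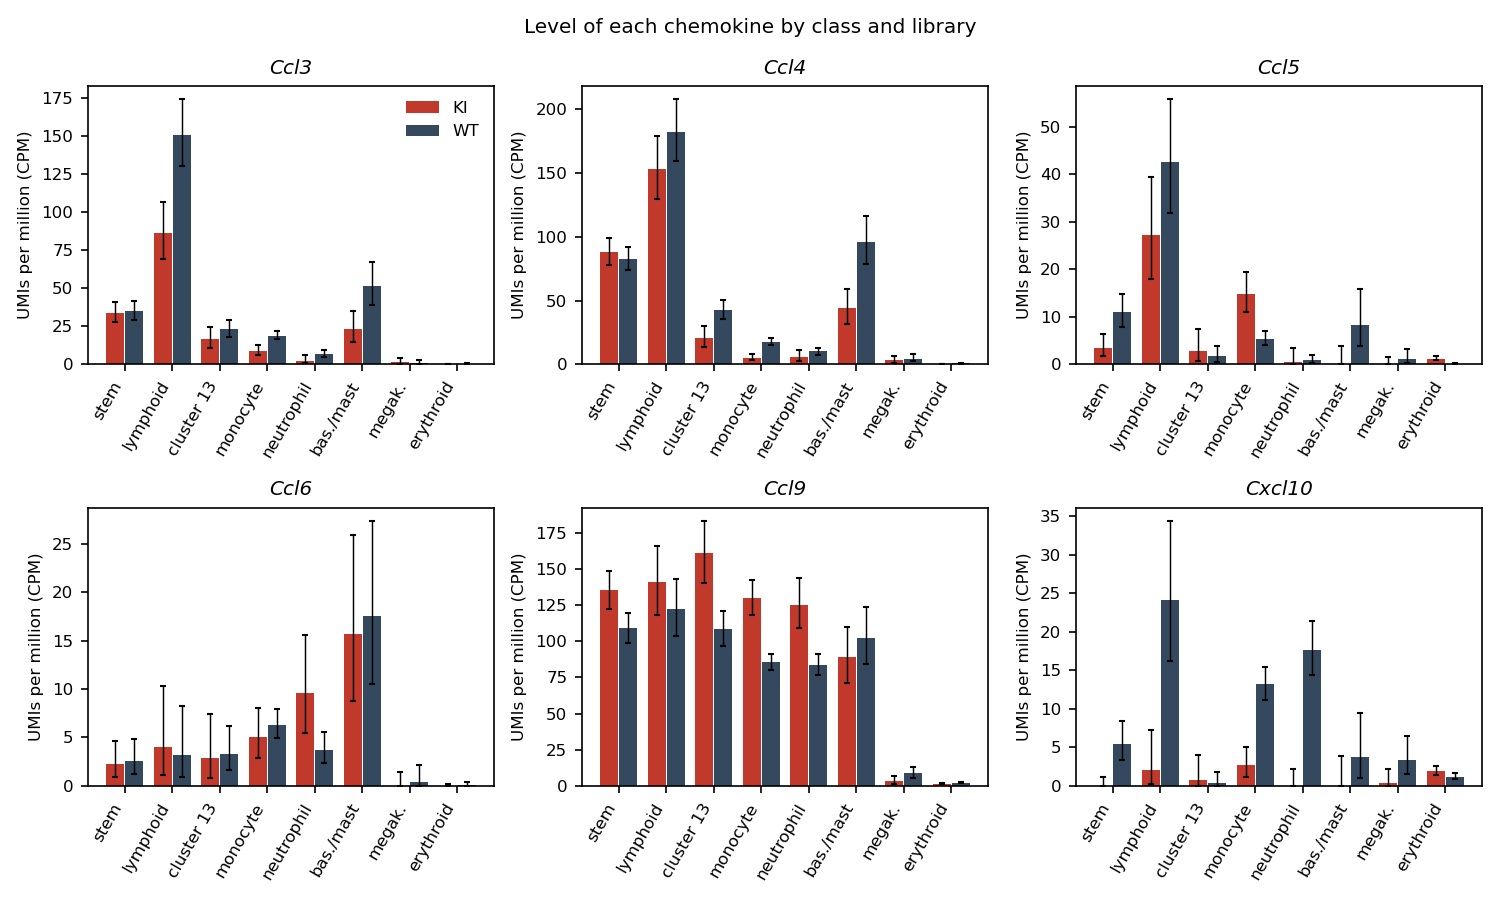
Level of each chemokine in CPM in 8 groups of cells, KI in red and WT in blue, with exact Poisson intervals for counting error from 1 library per genotype. Ccl3 and Ccl4 stand highest in lymphoid-primed cells, Ccl9 is spread over all groups but megakaryocyte and erythroid cells, and the vertical scales differ between panels.

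Within classes, 2 to 6 members reached 50 UMIs over both libraries, outside megakaryocyte cells, so each share of members past 2-fold rests on few genes. Of the 6 members in monocyte progenitors, 4 were past 2-fold, against 2.68% of 9151 genes. Of the 4, 3 were lower in KI, as were 1.93% of those genes, and 1 was higher, as were 0.743%. In basophil and mast cells 2 of the 3 members measured were past 2-fold, against 2.64% of 5044 genes. In stem and multipotent cells it was 1 of 4 (1.91% of 8726 genes), in neutrophil progenitors 1 of 3 (2.52% of 7856 genes) and in cluster 13 it was 1 of 3 (1.87% of 7284 genes). It was 0 of 4 in lymphoid-primed cells (1.87% of 5240 genes) and 0 of 2 in erythroid cells (5.46% of 10322 genes), and no member reached 50 UMIs in megakaryocyte cells (1.95% of 7799 genes). A member was counted where it had at least 50 UMIs over both libraries in the class, so a member that reached this through 1 library was more likely to be past 2-fold. That was so for Cxcl10 in neutrophil progenitors and for Ccl3, Ccl4 and Cxcl10 in monocyte progenitors, where WT had more cells and KI had 30, 18 and 9 UMIs. It was also so in basophil and mast cells for Ccl3 (22 KI and 56 WT UMIs) and Ccl4 (42 and 104). Ccl4 in cluster 13 (29 KI and 127 WT UMIs) was a further case. Ccl5 in stem and multipotent cells, the 1 member past 2-fold there, reached the minimum mostly through WT (11 KI and 42 WT UMIs). Several of these values rest on a few cells or do not hold under another setting.

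**Figure D2:**
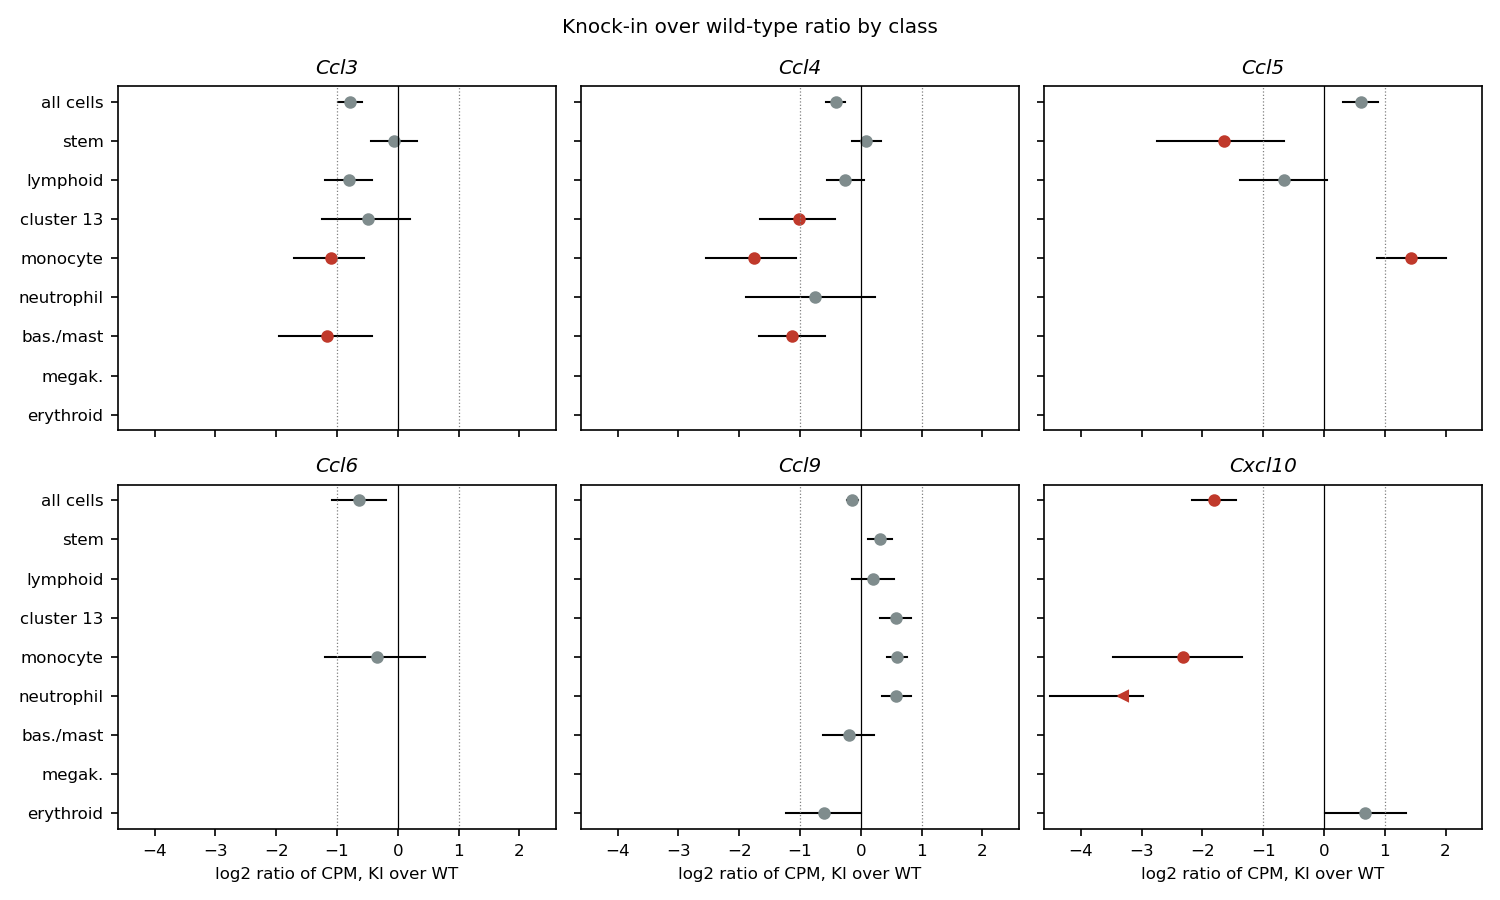
Log2 ratio of CPM, KI over WT, for each chemokine over all cells and in each group with at least 50 UMIs, with exact binomial intervals for counting error. Dotted lines mark 2-fold, red points lie past it, and the triangle marks Cxcl10 in neutrophil progenitors, where KI had 0 UMIs and was put at a floor of 3 UMIs.

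Ccl3 and Ccl4 both stood highest in lymphoid-primed cells, the cluster led by Dntt and Flt3, with stem and multipotent cells, led by Hlf, and basophil and mast cells next. Ccl3 stood at 86.5 CPM (69.2 to 107) in KI and 151 CPM (130 to 174) in WT lymphoid-primed cells, a log2 ratio of -0.81 (-1.19 to -0.43). The intervals of the 2 libraries did not overlap. Ccl4 stood at 153 CPM (129 to 179) in KI and 183 CPM (160 to 208) in WT lymphoid-primed cells, a log2 ratio of -0.26 (-0.56 to 0.05) whose interval included no difference. With KI cells placed on WT clusters the Ccl4 ratio was -0.98. In stem and multipotent cells both genes were level. There Ccl3 stood at 33.7 CPM in KI and 35.1 CPM in WT (log2 ratio -0.06, -0.44 to 0.32), and Ccl4 at 87.9 CPM in KI and 82.7 CPM in WT (0.09, -0.15 to 0.33). Where the listed genes were allowed into the clustering, this class took in 2334 KI and 910 WT cells and the ratios were -1.05 for Ccl3 and -0.94 for Ccl4. For Ccl4 the lymphoid-primed level stood above every other class compared in both libraries, with no overlap of intervals. The same held for Ccl3.

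The share of cells with at least 1 UMI was also highest in lymphoid-primed cells. With every cell thinned to 2000 UMIs, a Ccl3 UMI was found in 14.4% (10.0 to 19.8) of KI and 20.6% (15.3 to 26.8) of WT lymphoid-primed cells, and in 5.14% of KI and 5.90% of WT stem and multipotent cells. Unthinned, the lymphoid-primed shares were 22.6% in KI and 42.2% in WT, at median depths of 4245.5 and 5776.5 UMIs. A Ccl4 UMI was found in 21.4% of KI and 20.1% of WT lymphoid-primed cells after thinning, and in 11.9% of KI and 12.8% of WT stem and multipotent cells. Unthinned, the Ccl4 shares were 31.0% in KI and 38.2% in WT lymphoid-primed cells, and 19.9% in KI and 21.9% in WT stem and multipotent cells. Erythroid cells, which should lack these genes, gave thinned Ccl3 shares of 0 of 1792 cells in KI, which allows up to 0.167% at 3 counts (0.206% as the Clopper-Pearson limit), and 0.0761% in WT. Their thinned Ccl4 shares were 0.167% in KI and 0.152% in WT, at median depths of 14160 and 22092 UMIs.

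**Figure D3:**
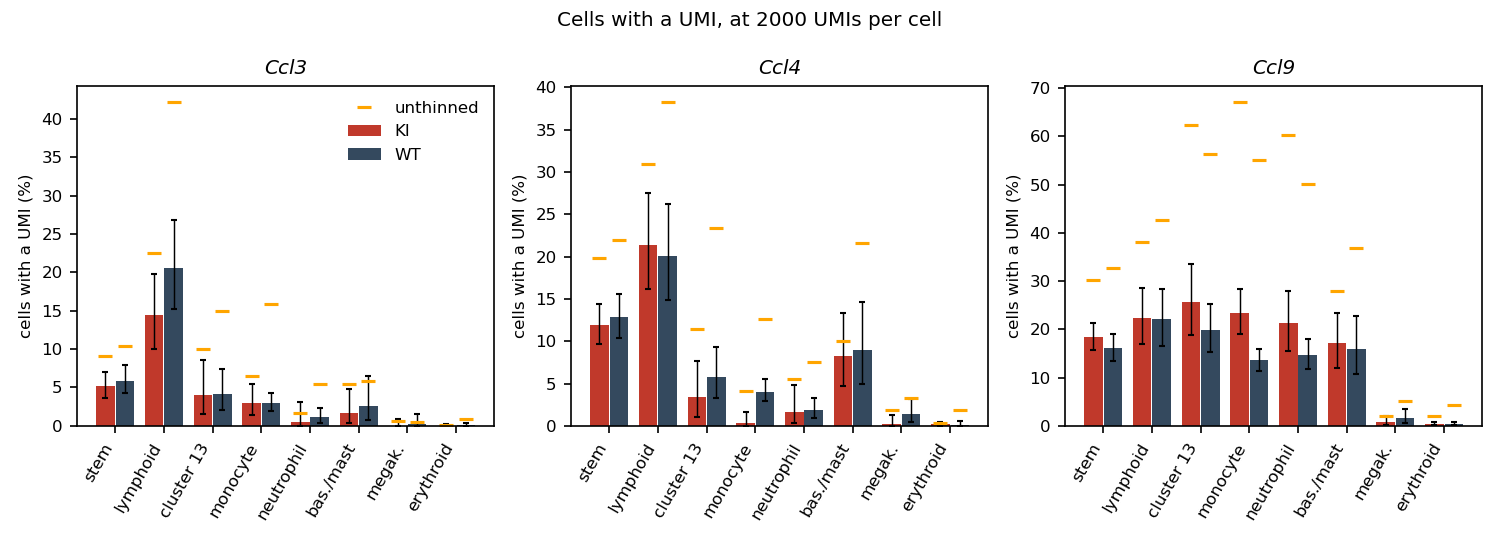
Share of cells with at least 1 UMI of Ccl3, Ccl4 or Ccl9 by group, KI left of WT, as bars with every cell thinned to 2000 UMIs and with exact Clopper-Pearson intervals, and as orange dashes without thinning. The gap between bars and dashes is widest for Ccl9 in monocyte progenitors, where deep cells raise the unthinned share to 67.1% in KI and 55.0% in WT.

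In lymphoid-primed and in stem and multipotent cells, a cell with a Ccl3 UMI more often had a Ccl4 UMI than a cell without one. Among thinned KI lymphoid-primed cells with a Ccl3 UMI, 45.2% had a Ccl4 UMI (14 of 31 cells), against 17.4% of those without. In WT lymphoid-primed cells the shares were 31.0% (13 of 42 cells) and 17.3%. In stem and multipotent cells they were 21.1% (8 of 38 cells) and 11.4% in KI, and 20% (8 of 40 cells) and 12.4% in WT. In thinned monocyte progenitors, 0 of 10 KI and 1 of 28 WT cells with a Ccl3 UMI had one of Ccl4.

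In monocyte progenitors, the cells led by F13a1, Irf8 and Ly86, both genes were lower in KI. Ccl4 stood at 5.30 CPM in KI (18 UMIs in 14 of 340 cells) and 17.9 CPM in WT (201 UMIs in 122 of 962 cells), a log2 ratio of -1.76 (-2.54 to -1.06). Ccl3 stood at 8.83 CPM in KI (30 UMIs) and 19.0 CPM in WT (213 UMIs), a log2 ratio of -1.10 (-1.71 to -0.55). Both genes were lower in each of the main clusters of the class. In cluster 3, Ccl3 stood at 12.3 CPM in KI and 25.4 CPM in WT and Ccl4 at 6.72 CPM in KI and 25.4 CPM in WT. In cluster 9, with more of the proliferation gene Mki67, Ccl3 stood at 5.02 CPM in KI and 14.4 CPM in WT and Ccl4 at 3.77 CPM in KI and 12.0 CPM in WT. With cells thinned to 2000 UMIs, Ccl4 stayed apart (log2 ratio -3.88, from 1 KI and 41 WT UMIs) but Ccl3 did not (-0.01, from 10 KI and 28 WT UMIs).

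Cluster 13 also held less Ccl4 in KI, at 20.9 CPM (29 UMIs) against 42.4 CPM in WT (127 UMIs), a log2 ratio of -1.02 (-1.65 to -0.43). Ccl3 there stood at 16.6 CPM in KI and 23.4 CPM in WT, a log2 ratio of -0.49 (-1.24 to 0.20). In neutrophil progenitors, led by Cebpe, Elane or S100a8, Ccl4 stood at 5.99 CPM in KI (10 UMIs) and 10.1 CPM in WT (60 UMIs). Ccl3 had 4 KI and 41 WT UMIs there, below the 50 needed for a ratio. Megakaryocyte cells held 4 Ccl3 and 8 Ccl4 UMIs in KI and 2 and 12 in WT.

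Basophil and mast cells were the other class with much Ccl3 and Ccl4, and the values rest on few cells. Ccl3 stood at 23.0 CPM in KI (22 UMIs in 11 cells) and 51.6 CPM in WT (56 UMIs in 10 cells), a log2 ratio of -1.17 (-1.95 to -0.43). Of these UMIs, 3 cells held 14 in KI and 34 in WT. Ccl4 stood at 43.9 CPM in KI (42 UMIs in 20 cells) and 95.9 CPM in WT (104 UMIs in 37 cells), a log2 ratio of -1.13 (-1.68 to -0.60). The thinned Ccl4 share was 8.29% in KI and 8.97% in WT, from 15 and 14 cells with a UMI. At this depth the share of cells was near level while the CPM was not. Unthinned, 20 of 200 KI and 37 of 171 WT cells had a Ccl4 UMI, at median depths of 4034.5 and 6148 UMIs. Under a stricter cell filter the log2 ratios were -0.11 for Ccl3 and -0.15 for Ccl4, and with cells thinned that of Ccl3 was -3.58, from 3 KI and 31 WT UMIs. With KI cells placed on WT clusters the Ccl4 ratio was 0.67, from 11 KI and 9 WT UMIs.

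At a finer clustering resolution of 1.6 the basophil and mast class came apart. Cluster 19 of that clustering (110 KI and 118 WT cells) was led by Prg2, Prss34 and Ms4a2, and held 20 KI and 56 WT Ccl3 UMIs and 31 KI and 93 WT Ccl4 UMIs. Its log2 ratios were -1.04 for Ccl3 and -1.14 for Ccl4. Cluster 22 (86 KI and 53 WT cells), led by Gzmb and Scin, held 2 KI and 0 WT Ccl3 UMIs and 11 Ccl4 UMIs in each library. The basophil protease gene Prss34 was also lower in KI, at 162 CPM in KI and 1439 CPM in WT in cluster 19. So was the granule protein gene Prg2 (85.7 CPM in KI and 2043 CPM in WT). Among other basophil and mast markers there, Mcpt8 was lower in KI too, at 84.2 CPM in KI and 514 CPM in WT. Ms4a2 was level (384 CPM in KI and 373 CPM in WT) and Cpa3 nearly so (749 CPM in KI and 868 CPM in WT). Gzmb had 4 KI and 3 WT UMIs. Prg2 is also a marker of eosinophils, and of the 6 eosinophil markers 3 had UMIs in the KI and 4 in the WT basophil and mast class, at 72.2 CPM summed in KI and 1913 CPM in WT. Epx and Ear2 were at 0 in KI, Ear6 was at 0 in WT and Ear1 in both. Their part in the Ccl3 and Ccl4 values was not tested.

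Ccl9 was found in every class compared outside the megakaryocyte and erythroid lineages, and it was higher in KI in the myeloid progenitors. In monocyte progenitors it stood at 130 CPM (118 to 143) in KI and 85.7 CPM (80.3 to 91.3) in WT, a log2 ratio of 0.60 (0.43 to 0.76). In neutrophil progenitors it stood at 125 CPM (109 to 143) in KI and 83.6 CPM (76.5 to 91.3) in WT, a log2 ratio of 0.58 (0.34 to 0.82). In cluster 13 it stood at 161 CPM (140 to 183) in KI and 108 CPM (96.6 to 121) in WT, a log2 ratio of 0.57 (0.32 to 0.82). None of these reached 2-fold.

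In stem and multipotent cells Ccl9 stood at 135 CPM in KI and 109 CPM in WT (log2 ratio 0.31, 0.11 to 0.51), or -0.63 in log2 where the listed genes were allowed into the clustering. In lymphoid-primed cells it stood at 141 CPM in KI and 122 CPM in WT (0.20, -0.14 to 0.54), and in basophil and mast cells at 88.9 CPM in KI and 102 CPM in WT (-0.20, -0.63 to 0.22). In order of level, the 6 groups from cluster 13 to basophil and mast cells in KI, and from lymphoid-primed cells to neutrophil progenitors in WT, each had an interval that overlapped the next. Megakaryocyte cells followed far below, at 3.58 CPM in KI (9 UMIs) and 8.73 CPM in WT (23 UMIs). Erythroid cells stood at 1.46 CPM in KI (37 UMIs) and 2.21 CPM in WT (64 UMIs), a log2 ratio of -0.60 (-1.22 to 0.01) in the direction opposite to that of the myeloid progenitors.

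Both main clusters of each myeloid class had more Ccl9 in KI. Monocyte cluster 3 stood at 151 CPM in KI and 112 CPM in WT, and monocyte cluster 9 at 107 CPM in KI and 63.9 CPM in WT. Neutrophil cluster 10, the Cebpe and Elane led cells, stood at 132 CPM in KI and 99.6 CPM in WT. Neutrophil cluster 15, where the later granule genes S100a8 and S100a9 led, stood at 112 CPM in KI and 62.7 CPM in WT. In each class the cluster with more Mki67 (9 and 15) held less Ccl9 than its partner in both libraries.

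After thinning, 23.4% (19.0 to 28.3) of KI and 13.6% (11.4 to 15.9) of WT monocyte progenitors had a Ccl9 UMI, as did 21.2% (15.5 to 28.0) of KI and 14.7% (11.8 to 17.9) of WT neutrophil progenitors. Lymphoid-primed cells gave 22.3% in KI and 22.1% in WT, and stem and multipotent cells 18.4% in KI and 16.1% in WT. Unthinned, a Ccl9 UMI was found in 67.1% of KI and 55.0% of WT monocyte progenitors (median depths 10088 and 11264 UMIs) and in 60.2% of KI and 50.1% of WT neutrophil progenitors (8942 and 10638 UMIs). Erythroid cells gave 0.335% in KI and 0.381% in WT after thinning. The Ccl9 level of erythroid cells was 0.908% of that of the highest class in KI and 1.81% in WT, where the same figure for the granule gene Mpo, which erythroid cells should also lack, was 0.387% in KI and 1.30% in WT.

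Ccl6 was sparse, with UMIs in myeloid, lymphoid-primed and stem and multipotent cells. In monocyte progenitors it stood at 5.01 CPM in KI (17 UMIs in 17 cells) and 6.33 CPM in WT (71 UMIs in 65 cells), a log2 ratio of -0.34 (-1.20 to 0.44). In neutrophil progenitors it stood at 9.59 CPM (5.48 to 15.6) in KI and 3.70 CPM (2.32 to 5.61) in WT, from 16 and 22 UMIs, too few for a ratio. The basophil and mast class had the highest Ccl6 level, at 15.7 CPM in KI and 17.5 CPM in WT, but 1 cell held 14 of the 15 KI UMIs and 1 cell held 15 of the 19 WT UMIs. Stem and multipotent cells held 7 KI and 10 WT UMIs (2.25 CPM and 2.62 CPM). Lymphoid-primed cells held 4 in each library (4.02 CPM in KI and 3.22 CPM in WT). In order of level, from monocyte progenitors down to stem and multipotent cells, each interval overlapped the next in both libraries. Over all cells, the lower Ccl6 level in KI stood beside fewer monocyte and neutrophil progenitors, which made up 6.19% and 3.30% of KI and 17.5% and 10.1% of WT cells. Their share in a sorted library can also be set by the sort.

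Ccl5 was held by a handful of cells. The 10 richest cells held 81.9% of its UMIs in KI and 81.9% in WT, where the 10 richest Ccl9 cells held 4.64% in KI and 2.63% in WT. In the cluster named T and NK cells, which are known to make it, Ccl5 stood at 1433 CPM in KI (68 UMIs, in 6 of 17 cells) and 627 CPM in WT (24 UMIs, in 2 of 5 cells). The 17 KI cells had 13 of the 14 T and NK markers, at 6405 CPM summed, and neutrophil progenitor markers at 611 CPM. The label holds less well for the 5 WT cells, which had 6 of the 14 at 2559 CPM summed, with Cd3e, Cd3d, Cd3g and Trac at 0, and neutrophil progenitor markers at 7182 CPM. The 6 KI cells with 10 or more Ccl5 UMIs held T and NK markers at 2673 CPM summed, against 155 CPM in KI cells with none. Of these 6 cells, 3 lay in the T and NK cluster, and 1 each in erythroid, lymphoid-primed and monocyte progenitor cells. That cluster was named by the same markers, so the naming set part of the sum, which says little about the cells outside it. The 4 WT cells with 10 or more Ccl5 UMIs, 1 of them in that cluster, held the markers at 669.9 CPM against 194 CPM. Neutrophil progenitors summed to 840 CPM in KI, with 1 of the 14 markers detected, and to 899 CPM in WT. The sum of the 4 WT cells therefore does not mark them as T or NK cells. Without the T and NK and the B and plasma cell clusters the log2 ratio over all cells was 0.22, against 0.60 with them.

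In progenitor classes the Ccl5 values rest on single cells. In monocyte progenitors Ccl5 stood at 14.7 CPM in KI and 5.44 CPM in WT (log2 ratio 1.44, 0.87 to 2.00), but 1 cell held 49 of the 50 KI UMIs and 1 cell held 50 of the 61 WT UMIs. Without the 3 richest cells of each library, 0 KI and 3 WT UMIs were left. Of the 14 T and NK markers, 4 had UMIs in KI and 6 in WT monocyte progenitors, at 287 CPM and 264 CPM summed, and Cd3e, Cd3g, Trac, Ncr1 and Gzma were at 0 in both. In lymphoid-primed cells Ccl5 stood at 27.1 CPM in KI (27 UMIs, 24 of them in 3 cells) and 42.6 CPM in WT (53 UMIs, 47 of them in 1 cell).

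Stem and multipotent cells had 11 Ccl5 UMIs in KI and 42 in WT (3.53 CPM and 10.99 CPM, log2 ratio -1.64, -2.75 to -0.66). Of the 42 WT UMIs, 3 cells held 29, and without the 3 richest cells of each library 5 KI and 13 WT UMIs were left. The thinned share of cells with a Ccl5 UMI was 0.811% in KI and 0.885% in WT. In erythroid cells Ccl5 had 31 KI UMIs, of which 1 cell held 25, and 2 WT UMIs.

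**Figure D4:**
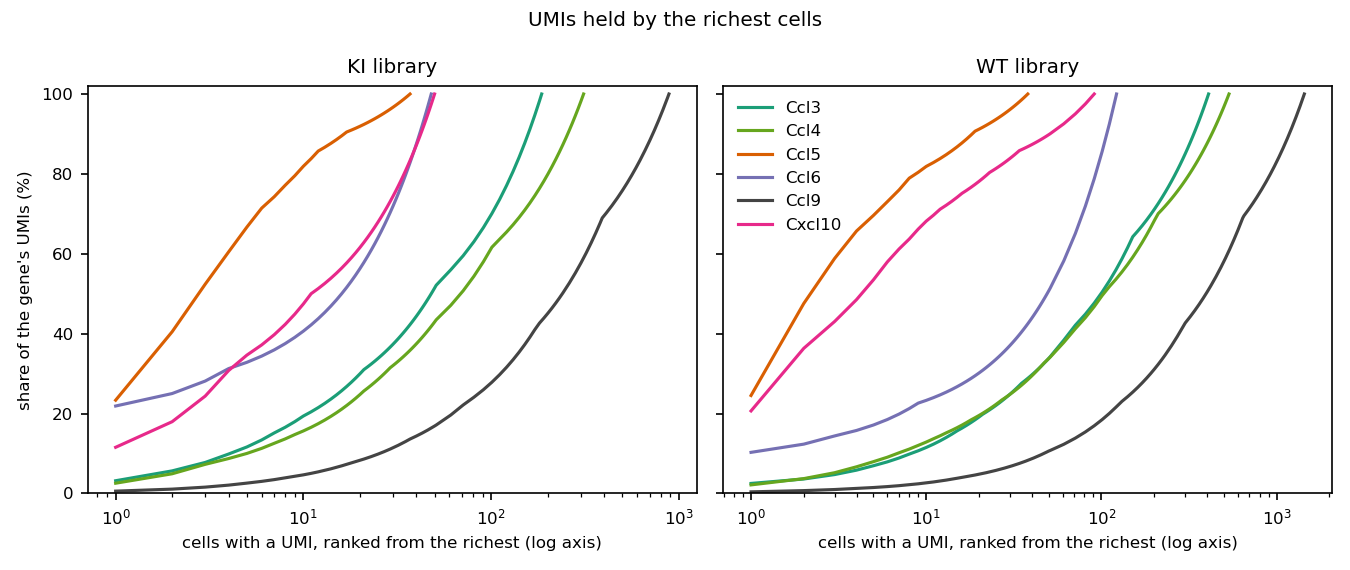
Share of each chemokine's UMIs held by its richest cells, in the KI library (left) and the WT library (right), against the rank of the cell on a log axis. Ccl5 reaches 81.9% within 10 cells in both libraries and Cxcl10 reaches 47.4% in KI and 68.2% in WT, whereas Ccl9 stands under 5% at that rank.

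Cxcl10 was also held by few cells in WT. No KI cell had 10 or more Cxcl10 UMIs, whereas 9 such WT cells held 266 of 402 UMIs. Of these 9 cells, 3 were monocyte progenitors (121 UMIs), 3 neutrophil progenitors (98 UMIs), 1 lymphoid-primed (27 UMIs), 1 stem and multipotent (10 UMIs) and 1 in cluster 2 (10 UMIs). Summed over the 9 cells, the interferon response list stood at 1499 CPM, against 361 CPM in WT cells without a Cxcl10 UMI, and the NF-kB inducible list at 1186 CPM against 419 CPM. Monocyte progenitor markers stood at 2059 CPM against 938 CPM.

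By class, Cxcl10 stood at 2.65 CPM in KI (9 UMIs) and 13.2 CPM in WT (148 UMIs) in monocyte progenitors, a log2 ratio of -2.32 (-3.47 to -1.35). With doublets kept this ratio was -0.12, from 56 KI and 174 WT UMIs, and under a looser cell filter it was 0.24, from 51 KI and 149 WT UMIs, so cells left out of the main count decide it. In neutrophil progenitors there were 0 KI and 105 WT UMIs (17.7 CPM). With the KI sum over the class put at a floor of 3 UMIs, KI was 9.83-fold lower. The exact interval of the log2 ratio extends to -2.97, a smaller difference. Without the 3 richest cells 7 WT UMIs were left, and with doublets kept the KI count was 0 and the WT count 80, a log2 ratio of -2.32 at the same floor. The thinned share was 0 of 179 KI neutrophil progenitors, which allows up to 1.68% at 3 counts (2.04% as the Clopper-Pearson limit), and 0.916% (0.298 to 2.12) in WT, so a difference in the share of cells was not detectable at this depth.

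Erythroid cells went the other way for Cxcl10, at 1.93 CPM in KI (49 UMIs in 35 cells) and 1.21 CPM in WT (35 UMIs in 28 cells), a log2 ratio of 0.68 (0.02 to 1.35). Of the 49 KI UMIs, 26 lay in cluster 7, where Cxcl10 stood at 5.91 CPM and the erythroid marker Car1 at 2864 CPM. The unnamed WT cluster 2, outside this class, held 49 Cxcl10 UMIs (7.87 CPM) with Car1 at 2961 CPM. The unnamed KI cluster 1 held 7 Cxcl10 UMIs (1.73 CPM) with Car1 at 1117 CPM. The erythroid direction therefore depends on which Car1-rich clusters are counted as erythroid. At resolution 0.6 the erythroid ratio was -0.16. The thinned share was 0.502% in KI and 0.228% in WT erythroid cells, against 0 of 740 in KI, which allows up to 0.405% at 3 counts (0.497% as the Clopper-Pearson limit), and 0.737% in WT stem and multipotent cells.

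Across the 7 named classes in both libraries (14 points, which share library and depth), the level of Ccl3 followed that of Ccl4 most closely of 10345 genes, with a Pearson r of 0.968 on log2(CPM + 1). Next for Ccl3 came Traf3ip2 (0.954), Satb1 (0.952), Slc43a2 (0.945) and Ldlrad4 (0.930), and for Ccl4 came Traf3ip2 (0.962), Marcksl1 (0.960), Nfkbiz (0.954) and Rnf13 (0.950). Genes most like Ccl9 were Lcp1 (0.981), Cd53 (0.981), Trib1 (0.978), Parp8 (0.975) and Rcsd1 (0.973). For Ccl6 they were Ly6e (0.932), Tbc1d22b (0.925), Gm26759 (0.915), Mcpt8 (0.908) and Cebpa (0.902). Ccl5 was most like Ctss (0.903), Plxnb2 (0.881), Flt3 (0.870), Evl (0.863) and Mcmbp (0.862), and Cxcl10 most like Bst2 (0.845), B230317F23Rik (0.842), Rpl36a (0.829), Rpl22 (0.825) and Rpl37 (0.823). These are descriptions of the pattern over classes. Class sums of Ccl5, of Ccl6 in basophil and mast cells and of Cxcl10 in WT rest on few cells, so the likenesses of these genes do too.

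Of 37 chemokine ligand genes in the files, 11 reached 50 UMIs over all cells, 5 of them higher and 6 lower in KI, with a median log2 ratio of -0.14 beside 0.06 for all genes. Outside the 6 members, Pf4, the platelet chemokine, stood at 2132 CPM in KI and 2917 CPM in WT megakaryocyte cells. Ccl17 stood at 18.7 CPM in KI (47 UMIs) and 8.73 CPM in WT (23 UMIs) there. Ccl25 stood at 15.1 CPM in KI and 13.6 CPM in WT erythroid cells. Ccl27a, whose near-identical copies can share reads, had 327 UMIs in KI and 451 in WT. Cxcl2, a neutrophil attractant with NF-kB control, had 0 KI and 73 WT UMIs in monocyte progenitors.

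Of 24 receptor genes, 6 reached 50 UMIs over all cells, 3 higher and 3 lower in KI. Ccr2, the receptor that lets monocytes leave the marrow, was level in monocyte progenitors, at 77.4 CPM in KI and 72.0 CPM in WT. Cxcr4, which holds progenitors in the marrow, stood at 54.5 CPM in KI and 33.5 CPM in WT monocyte progenitors (log2 ratio 0.70). In lymphoid-primed cells it stood at 31.2 CPM in KI and 19.3 CPM in WT, and it was higher in KI in each of the 8 groups compared. Cx3cr1 stood at 19.7 CPM in KI and 18.6 CPM in WT monocyte progenitors. Over all cells, Ccr1 had 16 KI and 38 WT UMIs and Cxcr3, the receptor of Cxcl10, had 1 KI and 8 WT UMIs.

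Immediate early genes, which stress and cell handling also induce, were mostly lower in KI in every group compared but erythroid cells. These groups included megakaryocyte cells, which held few Ccl3 and Ccl4 UMIs. In lymphoid-primed cells 11 of 13 were lower and 2 higher in KI, with a median log2 ratio of -0.67 beside 0.02 for all genes, and they summed to 2373 CPM in KI and 3667 CPM in WT. There Fos stood at 390 CPM in KI and 809 CPM in WT, Fosb at 152 CPM in KI and 359 CPM in WT and Klf2 at 37.2 CPM in KI and 101 CPM in WT. In monocyte progenitors all 14 measured were lower in KI, with a median of -0.69. In stem and multipotent cells, where Ccl3 and Ccl4 were level, 12 of 14 were lower too, with a median of -0.50. In megakaryocyte cells 12 were lower and 2 higher, with a median of -0.60, and they summed to 2701 CPM in KI and 4115 CPM in WT. Over all cells 8 were lower and 7 higher, and in erythroid cells 6 were lower and 7 higher, where they summed to 669 CPM in KI and 595 CPM in WT. KI lymphoid-primed cells with a Ccl3 UMI held the list at 3100 CPM and those without at 2181 CPM, and in WT the values were 4390 CPM and 3182 CPM. The gap was smaller in stem and multipotent cells. They stood at 3843 CPM with and 3553 CPM without a UMI in KI, and 4944 CPM and 4597 CPM in WT. Monocyte and neutrophil progenitors with a Ccl3 UMI also held more in both libraries. Basophil and mast cells with one held less in KI (5216 CPM against 5419 CPM) and more in WT (7663 CPM against 6680 CPM). Erythroid cells with one held less in both libraries. The part of these genes in the chemokine values was not tested.

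Of the NF-kB inducible genes in lymphoid-primed cells, 4 of 6 were higher in KI and 2 lower (median 0.10). Nfkb1 stood there at 96.5 CPM in KI and 90.9 CPM in WT and the inhibitor gene Nfkbia at 76.4 CPM in KI and 60.3 CPM in WT, whereas Nfkbiz stood at 15.1 CPM in KI (15 UMIs) and 39.4 CPM in WT (49 UMIs). Of 13 measured in monocyte progenitors, 9 were lower and 4 higher (median -0.30), and Tnfaip2 stood at 29.7 CPM in KI and 85.1 CPM in WT. Interferon response genes were lower in KI in most classes. In lymphoid-primed cells 10 of 10 were lower (median -0.47), in stem and multipotent cells 17 of 18 (median -0.43) and in monocyte progenitors 10 of 13 (median -0.34). In neutrophil progenitors, where KI had 0 Cxcl10 UMIs, 4 were lower and 3 higher (median -0.01). Their sum there was 220 CPM in KI and 300 CPM in WT. Bst2, the antiviral tetherin, stood at 37.2 CPM in KI and 168 CPM in WT lymphoid-primed cells and at 48.0 CPM in KI and 162 CPM in WT monocyte progenitors. In erythroid cells as named, where Cxcl10 was higher in KI, 8 interferon genes were higher and 11 lower (median -0.12). Of the NF-kB inducible genes there, 9 of 10 were higher and 1 lower (median 0.79, beside 0.03 for all genes). Summed, the NF-kB inducible list stood at 476 CPM in KI and 491 CPM in WT erythroid cells. The part of these lists in the Cxcl10 values was not tested.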

How the data were processed

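Single-cell 3′ RNA libraries of sorted Lin- Kit+ bone marrow cells, 1 per genotype, were made with a v2 reagent kit, per the labels' protocols. The authors deposited whole-number UMI counts for each gene in each barcode, written by Cell Ranger 3.1.0 per the file headers. The submitters' processing notes name the mm10 build. The files held 6640 KI barcodes (48005467 UMIs) and 7471 WT barcodes (70543211 UMIs), each with at least 500 UMIs, and 10 barcodes were in both.

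Kept were barcodes that held 500 genes or more and 1000 UMIs or more, with mitochondrial UMIs at 10% or less. Over the mitochondrial limit were 11.4% of KI and 23.0% of WT barcodes. Doublets were called per library with Scrublet in scanpy 1.11.5 and removed. The automatic call marked 0.0692% of KI cells, so there the top 5% of scores were removed (289), and 2.57% of WT cells (145). Cells of both libraries were clustered together (2000 variable genes, 30 principal components, 15 neighbours, leidenalg 0.10.2 at resolution 1), with no batch correction and with chemokine and other listed genes, Gata1, sex-linked, mitochondrial and ribosomal genes left out. Clusters were named by the marker lists. A cluster stayed unnamed with under 3 detected markers or more markers of another class among its top 10 genes.

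UMIs were summed per class and library and scaled to CPM, with exact Poisson intervals. Ratios are KI over WT with exact conditional binomial intervals. They needed 100 cells per library and 50 UMIs over both, and a sum of 0 was replaced by a floor of 3 UMIs. Shares have Clopper-Pearson intervals, with cells thinned to 2000 UMIs and shallower ones left out (299 KI and 107 WT). Background RNA was neither estimated nor removed. The ratio code was tested on simulated data. The 6 members, the 5 gene lists and the marker lists were chosen with earlier results of these data known. The text names the members, the other ligands and receptors with at least 200 UMIs, the 5 genes most like each member, and of the other lists the genes with the most UMIs or at least 2-fold apart. Cxcl2, Cx3cr1 in its class, Nfkbiz, Prss34, Prg2 and the rarer receptors were named after their values were seen. Alternatives were other cell filters, doublet rules, resolutions, scalings, thinning and leaving out the richest cells.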

Additional observations from a re-analysis of the deposited data

Results flagged for a closer look

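Ccl5 differed in direction between classes. Its log2 ratio was 1.44 in monocyte progenitors and -1.64 in stem and multipotent cells, 3.08 apart. Cxcl10 did so as well, with 0.68 in erythroid cells against -2.32 in monocyte progenitors (2.99 apart) and against -3.30 in neutrophil progenitors (3.97 apart). In each case the value of 1 class was higher and that of the other lower in KI, and the difference between the classes was not tested, because there is 1 library per genotype. The Ccl5 value of monocyte progenitors rests on 1 cell in each library, and the Cxcl10 values of WT monocyte and neutrophil progenitors on 3 cells each. The erythroid Cxcl10 value leaves out the unnamed, Car1-rich WT cluster 2, which held 49 Cxcl10 UMIs.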

How the results depend on the processing

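The ratios of Ccl3 and Ccl9 in monocyte progenitors, of Ccl9 in neutrophil progenitors and of Ccl3 in lymphoid-primed cells kept their sign under every alternative that gave a value, at -1.45 to -0.01, 0.46 to 0.90, 0.48 to 0.79 and -0.97 to -0.43. Ccl9 in monocyte progenitors was 0.90 with cells thinned. Over all cells Ccl5 was 0.97 under the looser cell filter, -0.11 under the stricter one and 0.22 without the T and NK and the B and plasma cell clusters. Weighting KI class levels by WT class shares gave 0.060 for Ccl6 and 0.42 for Ccl9. Cxcl10 over all cells was -1.17 under the looser filter, -1.16 with doublets kept, -2.19 thinned and -1.40 without the 3 richest cells of each library. In monocyte progenitors Cxcl10 was 0.24 under the looser filter and -0.12 with doublets kept. Ccl5 there was -4.29 with KI cells placed on WT clusters, -4.31 under the stricter filter, -3.59 with doublets kept, 4.16 with the top 5% of doublet scores removed in both libraries and 4.19 thinned, because 1 rich cell per library was or was not in the class. Ccl4 in basophil and mast cells was 0.67 with KI cells placed on WT clusters, a class of 51 KI and 55 WT cells. Ccl4 in stem and multipotent cells was -0.16 under the looser filter and -0.94 with the fixed lists allowed in clustering, where the class grew to 2334 KI and 910 WT cells, and Ccl9 was then -0.63. Of the alternative ratios, 245 lay within the counting interval of the main value, 28 lay outside it and 5 reversed a value past 2-fold. Shares and counts moved more often. Of the alternative shares, 220 were scored as the same and 67 as moved, and of the alternative counts 12 as the same and 20 as moved. The count of genes past 2-fold over all cells was 951 with a minimum of 20 UMIs and 331 with 200, against 629, and over the 8 groups it was 357 to 889 and 28 to 263, against 98 to 564. With 20 UMIs the members past 2-fold were 4 of 6 in monocyte progenitors (4.81% of genes) and 3 of 5 in neutrophil progenitors (5.43%). They were 2 of 4 in basophil and mast (5.82%) and in erythroid cells (7.88%), and 2 of 5 in stem and multipotent cells (3.54%). It was 1 of 5 in lymphoid-primed cells (4.42%), 1 of 3 in cluster 13 (4.03%) and 1 of 2 in megakaryocyte cells (3.97%). With 200 UMIs it was 2 of 3 in monocyte progenitors (1.25%). It was 0 of 3 in lymphoid-primed and in stem and multipotent cells, and 0 of 1 in neutrophil progenitors and cluster 13 (1.26% to 1.84%). No member reached 200 UMIs in basophil and mast, erythroid or megakaryocyte cells. Over all cells it was 1 of 6, Cxcl10, with either minimum. Alternatives that left fewer than 20 UMIs gave no value. No paired analysis was possible because each genotype has 1 library and no replicate number is shared between separate samples. Depth limits Ccl6 most, with 64 KI and 146 WT UMIs in all.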
